A study of Drosophila melanogaster with 9 samples.

Results

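The regions described here are the replication origins on the X chromosome of Drosophila melanogaster cells, taken as every listed region on the X arm in 5 deposited origin lists. The adjoining heterochromatic scaffolds of the X were left aside. They came to 637 of 8212 regions in the Bg3 list, 627 of 7268 in the S2 list, and 342 of 4505, 562 of 6448 and 590 of 5814 in the lists of S2 fractions 4, 5 and 6. In all, 2758 of 32247 listed regions lay on the X, and the same place can be listed several times. The 4 large autosomal arms (2L, 2R, 3L and 3R) were the background.

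Bg3 (ML-DmBG3-c2) cells descend from the central nervous system of larvae, and S2 (S2-DRSC) cells from embryos, with traits of haemocytes, the fly blood cells. Neither was treated. Short nascent strands, the RNA-primed DNA made where replication has just begun, were purified from each line out of pooled gradient fractions, with 2 biological replicates. Lambda exonuclease, which digests DNA without an RNA primer, removed broken DNA. From S2 cells they were also purified out of single fractions 4 (short strands), 5 (middle-sized) and 6 (long). Each fraction is 1 sample, for which the design text states 2 libraries. Every list merges its replicates or libraries, so the files hold no spread between cultures, and all intervals and p-values describe positions within the lists.

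A replication origin is a place where the helicase loaded in G1 is activated in S phase and a pair of forks leaves in opposite directions. Far more sites are licensed than are used, and dense origins are a feature of early-replicating, open chromatin. The fly X is a special case in both lines, which are male in type: the MSL complex binds active genes along the male X, acetylates histone H4 at lysine 16 and raises their transcription to match the autosomes. The X also holds fewer DNA copies than each autosome in male cells. Copy number and total read depth were not measured in these files, so a lower number of origins in the cells and a lower chance of calling them cannot be told apart in any count below.

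Coordinates are those of build dm3 as deposited. The pooled lists also give an efficiency, called strength here, in reads per kb of the origin. The product of strength and width was a whole number (within 0.001) at 100% of S2 origins but at 0.28% of Bg3 origins. Bg3 values are therefore on a scale of their own, and strengths were compared within a line. This product is called the reads inside an origin below, and in Bg3 it is not a plain count of reads. The length of an arm was set by the end of its outermost listed region, which made the X 22.4 Mb, or 18.8% of the 5 arms.

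Origins were sparse on the X in every list. In Bg3 there were 28.4 origins per Mb on the X and 62.0 on the autosomal arms, a ratio of 0.459 (95% interval 0.356 to 0.592). In S2 there were 27.99 on the X and 59.9 on the autosomal arms, a ratio of 0.467 (0.402 to 0.544). The ratios in fractions 4, 5 and 6 were 0.465 (0.356 to 0.606), 0.510 (0.418 to 0.622) and 0.610 (0.504 to 0.738). All 5 intervals lay below 1, with adjusted p between 4.28e-18 (S2) and 4.48e-06 (fraction 6) by quasi-Poisson regression on 500 kb windows. There were 45 such windows on the X and 196 on the autosomal arms, and neighbouring windows are not independent replicates.

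The X also lay below each autosomal arm taken singly. Its 28.4 origins per Mb in Bg3 compared with 51.3 on 3R, the sparsest autosomal arm, and 71.8 on 3L, the densest. Its 27.99 in S2 compared with 55.0 on 3L and 65.5 on 2L. In fraction 6, where the X was nearest to the rest, it had 26.3 per Mb and the autosomal arms had 37.9 to 48.5. Regions covered 2.41% of the X in Bg3, against 4.36% of the autosomal arms, and 2.76% in S2, against 5.25%.

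**Figure D1:**
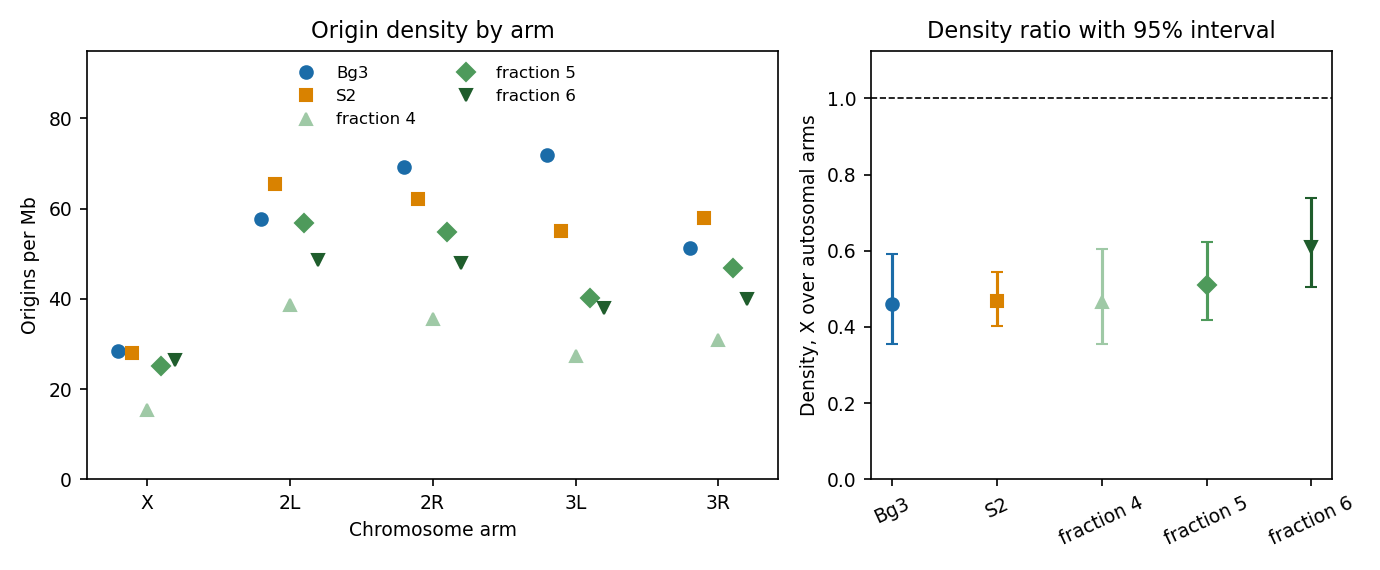
Left, origins per Mb on the X and on each autosomal arm in the 5 lists. Right, the ratio of X to autosomal density with its 95% interval from quasi-Poisson regression on 500 kb windows; the dashed line marks equal density, and all 5 intervals lie below it, from 0.459 in Bg3 to 0.610 in fraction 6.

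The low density was widespread along the X but not uniform. In S2, 42 of the 45 X windows lay below the autosomal median of 58 origins per Mb, and in Bg3 39 of 45 lay below its autosomal median of 56. The exceptions were pronounced in Bg3, where 6 X windows exceeded the autosomal upper quartile of 70 per Mb and the densest reached 120. In S2 only 2 X windows exceeded its upper quartile, also 70. The median X window had 14 origins per Mb in Bg3 and 24 in S2.

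Long stretches of the X carried no origin. Windows of 100 kb without any origin made up 30.4% of the X in Bg3, against 2.89% of the autosomal windows, and 13.4% in S2, against 1.65%. Stretches of at least 50 kb with no region in any of the 5 lists numbered 113 on the X and took up 42.8% of it. The autosomal arms had 95 such stretches, which took up 6.59% of them, from 3.52% on 2R to 10.2% on 3L. The 3 longest on the X ran from 20452934 to 20698894 (246 kb), from 20147604 to 20336616 (189 kb) and from 958820 to 1143434 (185 kb). The longest autosomal one, on 3L, was 168 kb.

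Distances between neighbouring origins differed past the threshold in S2, and in the other lists the answer depended on the processing. The median distance to the nearest origin of the same list was 3470 bp on the X and 3686 bp on the autosomal arms in Bg3, a ratio of geometric means of 1.03 (0.741 to 1.44, adjusted p = 0.939, n = 637 X origins). In S2 it was 6570 bp on the X and 4710 bp on the autosomal arms, a ratio of 1.59 (1.104 to 2.28, adjusted p = 0.0323, n = 627 X origins, least squares on log2 distance with errors clustered by window). No difference was detectable in the 3 fractions, with ratios of 0.721 (0.460 to 1.13), 1.01 (0.662 to 1.53) and 1.23 (0.869 to 1.75) in fractions 4, 5 and 6. These distances depend on how finely regions were split: after regions within 1 kb were merged, all 5 ratios were above 1 and passed, at 1.43 in Bg3, 1.57 in S2 and 1.62, 1.42 and 1.33 in the fractions. The S2 difference was itself lost without 3L among the autosomal arms (1.48, adjusted p = 0.0755, n = 627 X origins), and with the window's origin count as a covariate its ratio was 0.856.

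The lines differed in where on the X their origins were listed. The X was cut into 10 equal parts, numbered from the tip to the centromere. Parts 1 and 2 held 111 and 184 Bg3 origins but 38 and 53 S2 origins. Parts 3 to 9 each held more S2 than Bg3 origins, and part 6 had 40 in Bg3 and 108 in S2. Part 10, next to the centromere, was alike in both, with 89 in Bg3 and 83 in S2.

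**Figure D2:**
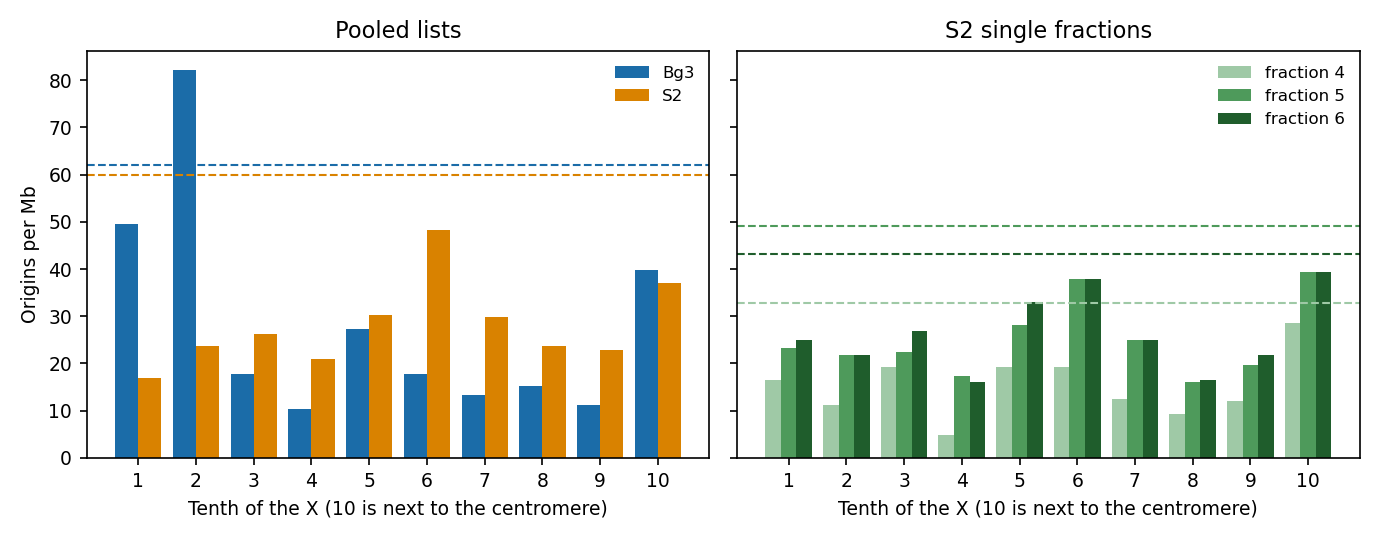
Origins per Mb in 10 equal parts of the X, from the tip (1) to the centromere (10), for the pooled Bg3 and S2 lists (left) and the S2 fractions (right). Dashed lines mark each list's mean on the autosomal arms; Bg3 in part 2 (82.1 per Mb) is the only bar above its own dashed line.

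Over the whole X no difference between the lines was detectable: the ratio of X to autosomal density in Bg3 was 0.982 times that in S2 (0.708 to 1.36, adjusted p = 0.943, n = 45 X windows, Poisson regression with an interaction). Locally, 7 of 45 X windows of 500 kb (15.6%) differed by an exact binomial test with Benjamini-Hochberg adjustment, against 8.64% of the 243 windows tested on the 5 arms and chromosome 4. Of these, 5 adjoining windows had more Bg3 origins, where 6.58% of all windows did, and an adjoining pair had more S2 origins, where 2.06% did. In windows of 1 Mb, 4 of the X had more Bg3 origins (11.4% of all windows did) and 6 had more S2 origins (9.76% of all did). In windows of 100 kb none was called on the X, and 0.0% of 1006 windows anywhere. This test treats origins as independent, which clustered origins are not.

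The Bg3-rich block ran from 1.5 to 4 Mb. Its windows held 54, 50, 52, 50 and 43 origins in Bg3, against 17, 9, 13, 18 and 10 in S2, in order along the X (adjusted p from 2.92e-05 to 0.00552, exact binomial test). That is 249 origins in Bg3, which is 39.1% of its X total on 2.5 Mb, against 67 in S2. At 99.6 origins per Mb the block had 1.61 times the Bg3 autosomal mean, while S2 had 26.8 per Mb, 0.447 times its own autosomal mean. The single S2 fractions stayed low there as well, with 39, 71 and 69 regions in fractions 4, 5 and 6.

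Few Bg3 origins of this block were listed in S2. Of the 249, 39 (15.7%) were found there, against 40.1% on the X outside this block and the S2-rich pair and 43.5% on the autosomal arms, and between 22 and 39 in a given fraction. Of the 67 S2 origins in the block, 37 (55.2%) were found in Bg3. The block was picked for many Bg3 and few S2 origins, which by itself lowers the share of Bg3 origins found in S2. Both shares are therefore descriptions. The Bg3 origins there had a median width of 411 bp and a median strength of 2209 reads per kb, close to the autosomal medians of 427 bp and 2246 reads per kb. They carried 13.3% of the Bg3 reads inside X origins. Outside the block the X had 0.315 times the autosomal density in Bg3, which is 0.670 times the value for S2 there. Outside the S2-rich pair described next the Bg3 value was 1.083 times that for S2. Both sets of windows were picked for their difference between the lines, so leaving either out had to move this value, and no test is read from it.

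The S2-rich pair covered 13 to 14 Mb. It held 8 and 13 origins in Bg3, against 43 and 34 in S2 (adjusted p = 3.56e-05 and 0.0265, exact binomial test). The 77 S2 origins made 77.0 per Mb, 1.29 times the S2 autosomal mean. Fractions 5 and 6 were also dense there, with 62 and 60 regions, or 1.26 and 1.39 times their autosomal means, and fraction 4 held 30. The densest 100 kb window of the X in S2 was in this pair, from 13200001 to 13300000, with 14 origins, against 3 in Bg3. It was 1 of 2 densest windows in fraction 5, with 13 regions. The densest windows in Bg3 (21 origins, from 21600001), fraction 4 (12, from 21500001) and fraction 6 (13, from 12600001) lay elsewhere.

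X origins were strong more often than autosomal ones, although the typical origin was not. Median strength in Bg3 was 2269 reads per kb on the X and 2246 on the autosomal arms, and in S2 1562 on the X and 1549 on the autosomal arms. The upper tail parted: the 90th percentile in Bg3 was 7304 reads per kb on the X, against 3137 on the autosomal arms, and in S2 5761 on the X, against 2559. The strongest 1% of Bg3 origins on the 5 arms numbered 66, of which 39 (59.1%) lay on the X, which held 9.62% of the list. In S2 it was 17 of 64 (26.6%), where the X held 9.78% of the list.

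The mean difference on the log scale passed the threshold in both lines. X origins had 1.23 times the geometric mean strength of autosomal origins in Bg3 (1.04 to 1.45, adjusted p = 0.0336, n = 637 X origins) and 1.17 times in S2 (1.06 to 1.28, adjusted p = 0.00303, n = 627), by least squares with errors clustered by window. Without the strongest 1% the Bg3 ratio was 1.06 and did not pass (adjusted p = 0.320, n = 598 X origins), while the S2 ratio was 1.0996 and passed. The Bg3 call was also lost without 3R (1.21, adjusted p = 0.0540, n = 637), without the 2 Mb next to the centromere (1.23, adjusted p = 0.0527) and without X 13 to 14 Mb (1.205, adjusted p = 0.0674). With total reads inside the origin in place of reads per kb, the S2 ratio was 1.102 (adjusted p = 0.430, n = 627). The X held 17.2% of the Bg3 reads and 14.1% of the S2 reads inside origins of the 5 arms. Per Mb that was 0.896 times the autosomal arms in Bg3 and 0.707 times in S2, with 0.459 and 0.467 times the origins.

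Many strong X origins of Bg3 were gathered in a few stretches. In Bg3, 34 X windows of 500 kb had at least 5 origins, and in 11 of them the median strength was above that of each of 195 autosomal windows, which lay between 1978 and 3097 reads per kb. In 10 others the median was below that of each autosomal window, down to 1639, so X windows spread to both sides. These 10 held 5 to 13 origins each, fewer than most autosomal windows. The 11 high ones held 6 to 20 each, except for 60 in the window from 21500001. Medians of few origins scatter more, to either side. The 4 windows from 8500001 to 10500000, called the first strong stretch here, had medians of 6625, 7359, 11745 and 8173 reads per kb. The 4 windows from 12000001 to 14000000, the second strong stretch, had 6806, 5360, 3296 and 4677. The other windows above the autosomal range began at 1, 5500001 and 21500001, with medians of 3875, 3197 and 3117. In S2, 4 of 42 X windows were above each autosomal window, where autosomal windows lay between 1363 and 1998 reads per kb. Only 1 was below, at 1319, with 7 origins. A pair of the high ones, from 9500001 to 10500000 with medians of 5366 and 4122, lay within the first stretch, and the others, at 2077 and 2073, were the last 2 windows before the centromere. These stretches were picked after their values were seen, so no test is given for them.

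**Figure D3:**
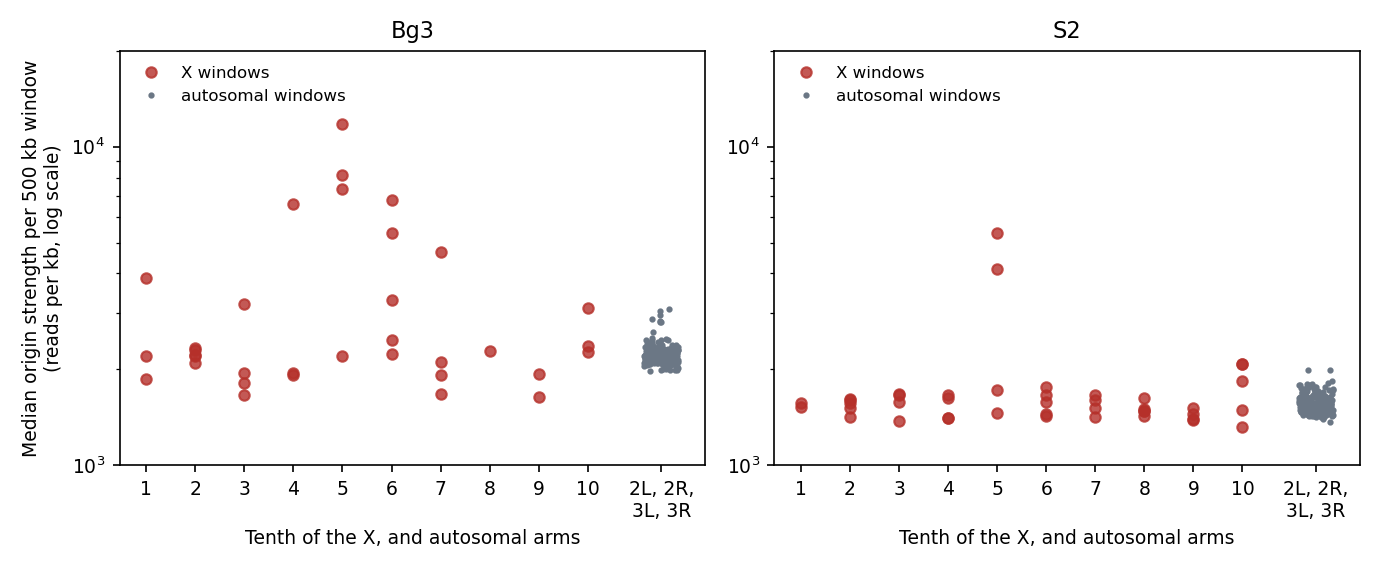
Median strength in reads per kb (log axis) of each 500 kb window with at least 5 origins, for X windows by their part of the X and for autosomal windows (right-hand column of points), in Bg3 and in S2. In Bg3 11 X windows stand above the autosomal range, the highest at 11745 in part 5, and 10 lie below it, the lowest at 1639. In S2 4 stand above, a pair in part 5 and a pair in part 10, and 1 lies below. Windows below the range held 5 to 13 origins each. In Bg3 those above it held 6 to 20, except for 1 in part 10 with 60. Medians of few origins scatter more.

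In the first stretch the 57 Bg3 origins had a median of 8173 reads per kb and an interquartile range of 4259 to 18575. The rest of the X outside both stretches had a median of 2216 (1917 to 2590), near the autosomal 2246 (1991 to 2588). The first stretch had 28.5 Bg3 origins per Mb, against 29.1 on that rest of the X. That rest includes the Bg3-rich block, and outside this block and the S2-rich pair the X had 19.4 per Mb in Bg3. S2 origins were more numerous in the stretch, at 38.5 per Mb, against 23.3 on the rest outside both stretches. Fractions 5 and 6 had 31.5 and 34 per Mb, against 21.7 and 23.1. These densities were not tested. The median width of the Bg3 origins was 411 bp, close to the autosomal 427 bp. The strong run ended sharply in Bg3: the origin at 10234092 to 10234828 had 16550 reads per kb, and the next 9, up to 10662012, had 1277 to 2379. In S2 the stretch held 77 origins with a median of 1672 reads per kb and an upper quartile of 5366, so strong and ordinary origins lay side by side.

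Some of these sites were strong in both lines. Of the 57 Bg3 origins of the stretch 23 were found in S2, and of the 77 S2 origins 25 were found in Bg3. Of the 43 Bg3 origins there in the top 5% of the list, 22 were found in S2. Within the stretch 21 origins matched singly between the lists, with median strengths of 14916 reads per kb in Bg3 and 5501 in S2, against 2319 in Bg3 and 1679 in S2 for the 2152 matched origins on the autosomal arms. Pairs included origins at 9409434 to 9409933 (57834 in Bg3, 27513 in S2), 9774794 to 9775462 (53907 in Bg3, 31202 in S2), 9129026 to 9129622 (49919 in Bg3, 23459 in S2) and 8987031 to 8987412 (44512 in Bg3, 19920 in S2), with coordinates from Bg3. These 4 were chosen after their values were seen, as the strongest pairs next to the one named below. Centres lay a median of 35 bp apart. The log2 ratio of Bg3 to S2 strength had a median of 1.17 there and 0.45 on the autosomal arms, and 19 of the 21 pairs lay above the autosomal upper quartile of 0.72. The stretch was picked for strong Bg3 origins, which by itself raises this ratio, so it is a description. Over all 155 matched X origins the median was 0.42, and the difference from the autosomal arms did not pass (ratio 0.959, 0.837 to 1.0995, adjusted p = 0.725, n = 155 X origins).

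**Figure D4:**
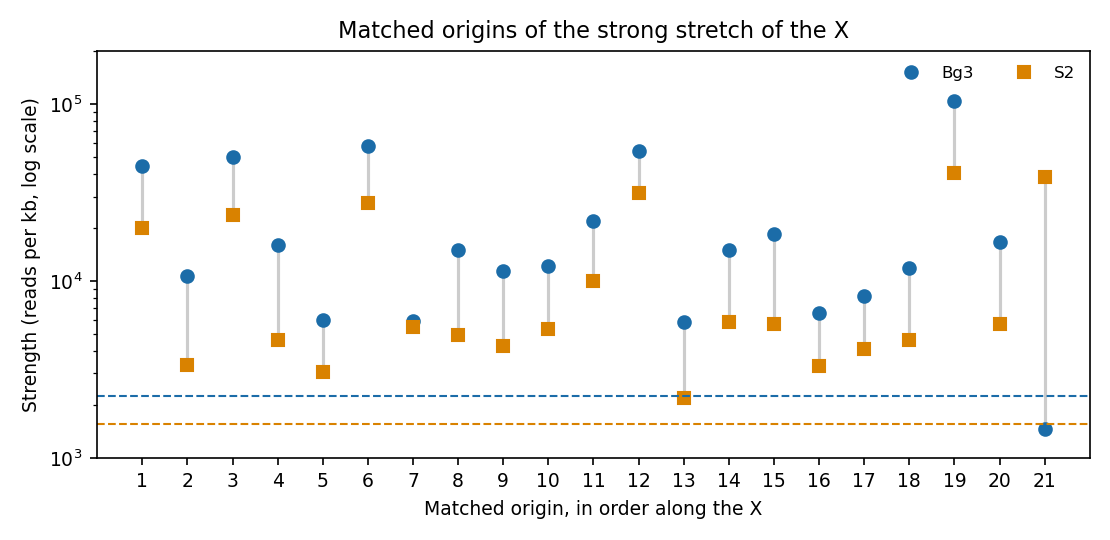
Strength in reads per kb (log axis) in Bg3 and S2 of the 21 origins matched between the lists in the first strong stretch of the X, in order along the chromosome; dashed lines mark each line's median over all autosomal origins. The scales of the lines differ, so each point is read against its own line: in 20 pairs both lie above it, and in the last, where a 247 bp Bg3 origin overlaps the end of a 7719 bp S2 origin, the Bg3 point lies below.

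Since the stretches were picked for strong Bg3 origins, leaving them out had to lower the Bg3 value, and the values without them are a description. Without the first stretch the ratio of X to autosomal strength was 1.10005 in Bg3 and 1.11 in S2, and without both it was 1.03 in Bg3 and 1.12 in S2. Of the 331 origins in the top 5% of the Bg3 list, 110 lay on the X, 43 of them in the first stretch, 23 in the second and 44 elsewhere. Of the 321 in S2, 83 lay on the X, with 25 and 7 in these stretches and 51 elsewhere.

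The strongest X origins ranked high in the whole list. In Bg3 they held ranks 1, 2, 3, 6 and 7 of 6622, at 8375277 to 8375460 (885811 reads per kb), 12331631 to 12332041 (223389), 21833804 to 21835415 (170095), 12387707 to 12387864 (120909) and 10196362 to 10196796 (103574). The first and the one at 12387707 were in no S2 list. In S2 they held ranks 2, 6, 10, 11 and 13 of 6413, at 21834739 to 21835118 (263182 reads per kb), 12331781 to 12332048 (136944), 21345382 to 21345895 (46290), 4990267 to 4997976 (44994) and 10196413 to 10196744 (40753). All 5 were found in Bg3, and all but the second were in all 3 fractions. The fraction lists placed the second in fractions 5 and 6, with the nearest fraction 4 region 53432 bp away. Of these S2 origins 4, with the one at 10242786 to 10250504 (38890 reads per kb), were the strongest found in all 5 lists.

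Strong X origins in Bg3 were narrow in the strong stretches. Of its 110 X origins in the top 5%, 74 (67.3%) were under 1 kb, against 67 of 221 (30.3%) on the autosomal arms. Such narrow ones were 42 of 43 in the first stretch and 16 of 23 in the second, and 16 of 44 (36.4%) on the rest of the X, nearer to the autosomal share. In S2 it was 32 of 83 (38.6%) on the X and 31 of 238 on the autosomal arms. These limits were chosen after the values were seen. Reads were concentrated: the 50 X origins with the most reads held 65.5% of the reads inside X origins in Bg3 and 77.8% in S2.

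The width difference between the X and the autosomal arms passed the threshold in fraction 4. There the median was 792 bp on the X and 616.5 bp on the autosomal arms, a ratio of geometric means of 1.296 (1.13 to 1.48, adjusted p = 0.000755, n = 342 X regions). The other ratios did not pass: 1.12 (0.950 to 1.33) in Bg3, 0.945 (0.848 to 1.05) in S2, 1.05 (0.928 to 1.18) in fraction 5 and 0.992 (0.883 to 1.11) in fraction 6. The shape differed too, since regions of 4 kb or more were a larger share of the X regions in every list. It was 4.08% against 2.42% on the autosomal arms in Bg3, 6.06% against 2.71% in S2 and 11.7% against 5.32% in fraction 4. By length there was no clear excess, since the X is 18.8% of the 5 arms. It held 26 of their 171 such regions in Bg3 and 38 of 195 in S2. In fractions 4, 5 and 6 it held 40 of 209, 31 of 170 and 34 of 176. These shares were not tested.

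The 38 wide S2 origins on the X held 67.9% of the S2 reads inside X origins, against 60.8% for the wide ones on the autosomal arms. In Bg3 the 26 wide ones held 28.8% on the X, against 35.8%. Of the 38, 37 were in all 3 fractions and 26 were found in Bg3. For 26 of the 38 another S2 origin of this size class had nearly the same width (within 50 bp) and strength (within 10%), and the most such companions of 1 origin was 21. Whether these are copies of a repeated sequence was not tested. The widest X regions recurred across lists. The stretch at 10242786 to 10250504 (S2) was among the 3 widest in S2 and in all 3 fractions, and so was the one at 4990267 to 4997976. The S2 region at 3647427 to 3655241 was matched by one of the 3 widest in fraction 4, at 3647416 to 3655129. A region at 21595146 to 21602235 in fraction 5 and 21595129 to 21602235 in fraction 6 was found in Bg3 but lay 3711 bp from the nearest S2 origin. In Bg3 the widest were at 21769363 to 21776854, 6917602 to 6925048 and 21558281 to 21565245, and the last was in fraction 6 only among the S2-derived lists.

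Fewer X origins were shared between the lines. In Bg3 198 of 637 X origins (31.1%) were found in S2, against 43.5% on the autosomal arms, an odds ratio of 0.586 (0.415 to 0.827, adjusted p = 0.00704, n = 637, logistic regression with errors clustered by window). In S2 193 of 627 (30.8%) were found in Bg3, against 42.4%, an odds ratio of 0.603 (0.422 to 0.861, adjusted p = 0.0148, n = 627). The density of the other list bears on such shares, and with width and the local density of the other list as covariates the S2 ratio was 1.08 (adjusted p = 0.722, n = 627) while the Bg3 ratio was 0.577 (adjusted p = 0.00348). Without the Bg3-rich block the Bg3 odds ratio was 0.902, and without the S2-rich pair the S2 odds ratio was 0.671. Neither passed, but these windows were picked on the counts of both lists and the values are a description. Among the stronger origins of each list neither passed, with 0.782 for Bg3 and 0.841 for S2.

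**Figure D5:**
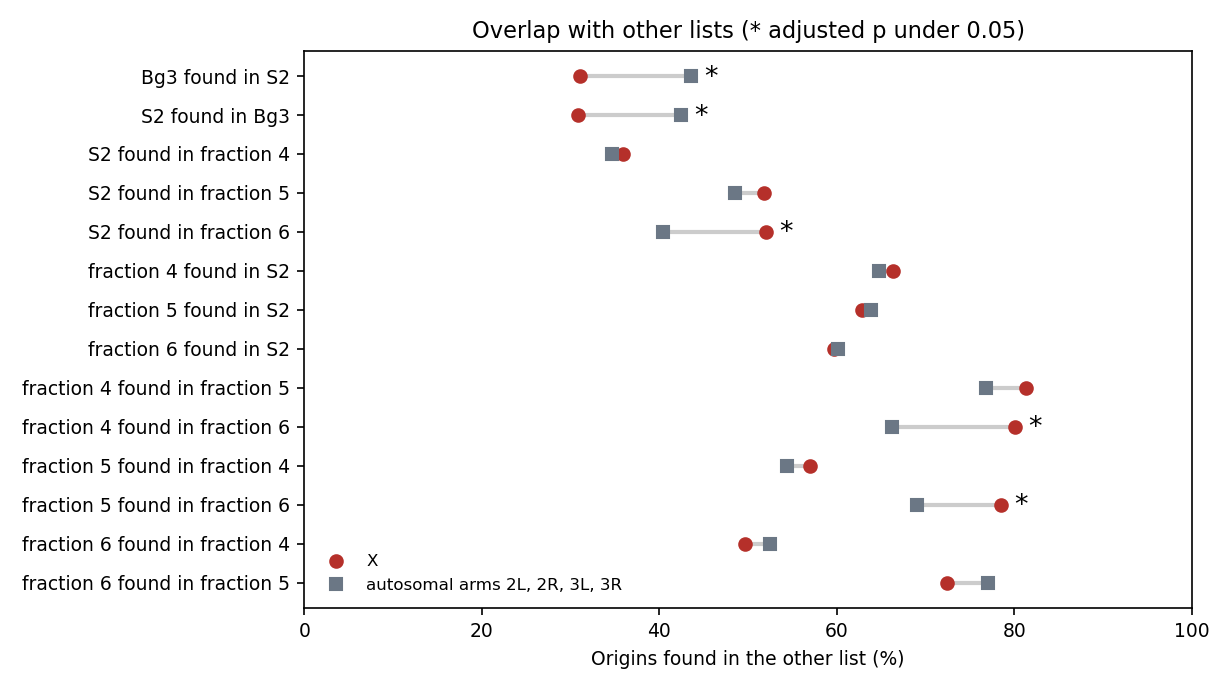
Percentage of origins of a list found in another list by at least 1 bp of overlap, on the X and on the autosomal arms. Stars mark an adjusted p under 0.05 by logistic regression; sharing between the lines is lower on the X, and the share of S2, fraction 4 and fraction 5 regions found in fraction 6 is higher on the X.

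The fraction of long strands held more of the X than the others did. The X made up 9.73%, 10.6% and 12.4% of the regions of fractions 4, 5 and 6 on the 5 arms. The ratio of X to autosomal density in fraction 6 was 1.31 times that in fraction 4 (1.16 to 1.48, adjusted p = 2.52e-05, n = 45 X windows) and 1.20 times that in fraction 5 (1.12 to 1.28, adjusted p = 2.37e-07, Poisson regression with an interaction). Fraction 5 over fraction 4 did not pass, at 1.097 (0.976 to 1.23, adjusted p = 0.122, n = 45). These 3 comparisons were added after the counts were seen.

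Overlaps showed the same side. Of 342 X regions in fraction 4, 80.1% were found in fraction 6, against 66.2% on the autosomal arms (odds ratio 2.06, 1.48 to 2.87, adjusted p = 0.000102, n = 342). Of 562 in fraction 5 it was 78.5%, against 69.0% (1.64, 1.29 to 2.07, adjusted p = 0.000190, n = 562). Of the 627 S2 X origins 326 (52.0%) were in fraction 6, against 40.4% (1.595, 1.24 to 2.06, adjusted p = 0.00120, n = 627). These 3 also passed with width and local density as covariates. No difference was detectable in the share of S2 X origins in fraction 4, at 35.9% on the X and 34.7% on the autosomal arms, or in fraction 5, at 51.8% and 48.6%. S2 origins found in fraction 6 alone numbered 45 on the X (7.18%), against 173 on the autosomal arms (2.99%). Those found in fraction 4 alone numbered 8 on the X (1.28%), against 189 (3.27%).

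Support by fractions went with strength on the X. Of the S2 X origins 243 (38.8%) were in no fraction and 193 (30.8%) in all 3, against 44.6% and 26.2% of the autosomal ones. Median strength was 1419 reads per kb on the X for those in none and 3147 for those in all 3, against 1424 and 2002 on the autosomal arms. The share found in Bg3 was 11.9% on the X for those in none, against 28.4% on the autosomal arms, and 60.6% for those in all 3, against 62.1%. None of these contrasts was tested.

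When overlapping regions of all lists were joined, the X held 1270 distinct sites, or 56.7 per Mb, against 113.9 per Mb on the autosomal arms. Of the X sites 708 (55.7%) were in a single list, against 52.7% of the autosomal sites. Those in Bg3 alone were 357 on the X (28.1%), against 24.7%, and those in S2 alone 214 (16.9%), against 16.8%. On the X 106 (8.35%) were in all 5 lists, against 8.54% of the autosomal sites. Sites in all 5 lists were thus 0.487 times as dense on the X, close to the 0.498 for all sites. Sites in both pooled lists but in no fraction were rare on the X, at 27, or 0.169 times the autosomal density. Sites in S2 and fraction 6 alone numbered 36 on the X and 104 on the autosomal arms, 1.49 times the autosomal density, the reverse of the general deficit. These densities are descriptions with no test.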

How the data were processed

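The members and most comparisons were chosen with earlier results of these data known. Per the submitters' processing notes, Bowtie2 2.2.0, SAMtools 0.1.19, MACS 1.4.1 and build dm3 were used; the labels state no settings or thresholds, and of the pooling only that replicates were pooled. The authors deposited 5 region lists, and 2 of the lists hold a signal (efficiency, here strength) in reads per kb. Library depth is unknown. No gene annotation or genome of build dm3 was at hand, so the planned comparison of sequence and gene context was not made.

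Origins were placed by their centres. Density used quasi-Poisson regression on 500 kb windows; strength, width and distance used least squares on log2 values and sharing (1 bp overlap) used logistic regression, both with errors clustered by window (Python 3.11.15, statsmodels 0.14.6). P-values were two-sided and adjusted by Benjamini-Hochberg over 33 results, and over 3 for the added fraction comparisons. The main fits, without covariates, were tested on simulated data in which windows were independent of each other. The negative binomial and covariate alternatives were not. The text names the 5 strongest X origins per line and in all lists, the 3 widest per list, passing 500 kb windows, the densest 100 kb windows and the 3 longest gaps.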

Additional observations from a re-analysis of the deposited data

Results flagged for a closer look

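The ratio of X to autosomal origin density differed between fractions of the same cells: in fraction 6 it was 1.31 times that in fraction 4 and 1.20 times that in fraction 5. An interaction term tested each difference, and a part of the X or an autosomal arm left out did not end either call.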

How the results depend on the processing

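Over 456 alternatives for 38 results, 420 were counted as the same, and 22 results were so throughout, all 5 X to autosomal densities among them. Same means that the side of the threshold was kept, with a change of direction counted only where the main or the alternative value passed. For counts of called windows it means a similar count. Bg3 over S2 strength at matched origins was thus the same at 0.959 in the main setting and 1.20 among stronger origins. All values below are ratios of X to autosomal arms unless counts; the causes were not tested. Merging regions within 1 kb gave distance ratios of 1.43 (Bg3), 1.62 (fraction 4, reversed), 1.42 (fraction 5) and 1.33 (fraction 6), odds ratios of 0.711 and 0.689 for fraction 6 regions found in fractions 4 and 5, and 1.15 for fraction 5 over 4 density, all passing. With the window's count as a covariate distance ratios were 0.741 (Bg3), 0.856 (S2) and 0.622 (fraction 5), all reversed, and 0.396 (fraction 4). The S2 distance ratio no longer passed among stronger origins (1.19), without 3L (1.48), without X 1.5 to 4 Mb (1.496) or without X 13 to 14 Mb (1.599). The Bg3 strength ratio no longer passed without 3R (1.21), without the 2 Mb next to the centromere (1.23), without X 13 to 14 Mb (1.205), without the strongest 1% (1.06), or, as settings chosen after seeing the data, without the first strong stretch (1.10005) or both (1.03), which were picked for strong origins. The S2 strength ratio did not pass for reads inside the origin (1.102). The Bg3 share found in S2 did not pass among stronger origins (0.782), at 50% overlap of both regions (0.696) or without X 1.5 to 4 Mb (0.9015). The S2 share found in Bg3 did not pass among stronger origins (0.841), at 50% overlap (0.679) or without X 13 to 14 Mb (0.671), and was 1.08, reversed, with width and density as covariates, where S2 in fraction 5 passed at 1.46. Fraction 6 in fraction 5 passed without the centromeric 2 Mb (0.739) and at a 500 bp gap (0.716). The Bg3 over S2 density ratio was 0.670 without X 1.5 to 4 Mb and 1.083 without X 13 to 14 Mb, windows picked for their difference between the lines, so neither is read as a test. X windows called numbered 0 in each direction at 100 kb, and 6 with more S2 origins at 1 Mb. No paired analysis was possible because each list pools its replicates, and for the same reason no replicate could be left out.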
